A study of Mus musculus with 44 samples.

Results

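The genes of the synaptic vesicle and of its release machinery were followed through every assay of a study of translation and poly(A)-tail length in mouse brain tissue and cultured cortical neurons. The set was fixed as a list of 40 mouse gene symbols, sorted here by role: synapsins, vesicle membrane proteins, transmitter transporters, synaptotagmins, SNAREs and complexins, the SNARE disassembly factors, active zone and priming proteins, endocytic proteins and a synuclein. A gene counted as a member where a RefSeq transcript in the deposited tables carried its symbol. This held for 39 of the 40 symbols, each with 1 transcript among the 17126 of the tables. Syt5 had none and is named only.

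At a synapse, transmitter is pumped into vesicles by vesicular transporters, and the filled vesicles are tethered and primed at the active zone. Calcium that enters with an action potential binds synaptotagmins, the SNARE proteins of vesicle and plasma membrane zip together, and the membranes fuse. NSF and its SNAP adaptors then take the SNARE complexes apart, and clathrin, dynamin and their partners retrieve the membrane. Many of these genes are used mainly by neurons in brain, while others, such as clathrin heavy chain, serve membrane traffic in every cell.

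Libraries of 3 kinds were compared. RNA-seq reads and ribosome-protected fragments (RPFs, the mRNA pieces covered by translating ribosomes) were counted on reading frames. Tail libraries gave tags, which are 3′-end reads counted per gene, and a poly(A)-tail length per gene in nucleotides (nt). Levels are in RPM, the reads or tags of a gene per 1000000 on genes of its library. Translational efficiency (TE) was the log2 ratio of a gene's RPF RPM to its RNA-seq RPM in the same sample, both as deposited. Deposited RPM, also used for the cutoffs of TE, are scaled otherwise than the levels. Over genes they summed to 21.6% of 1000000 in RNA-seq of DIV14 unstimulated culture and to 67.5% in its RPFs. These shares differed between libraries, so TE differences between samples include a shift common to all genes.

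The animals were C57BL6J mice with no engineered allele named. The tissues were hippocampus of embryonic day 16, hippocampus of an adult male and cortex of an adult male. Cultures were made from cortices of pups 0 to 1 day old, pooled over animals and kept with cytosine arabinoside, a poison of dividing cells. Those used after 10 days in vitro (DIV10) were left unstimulated or were depolarized with KCl for 10 or 30 min. Of the DIV14 cultures some were unstimulated, others received BDNF or a mixture of glutamate and glycine (glu/gly) over 30 min, and others had been transduced with a lentivirus on day 5. The virus carried GFP behind the neuronal synapsin promoter, with no miRNA, miR-1 or miR-155 in the GFP 3′ UTR. Visual cortex came from mice of 6 to 7 weeks kept for 1 week in the dark, of which 4 were killed in the dark and 4 after 1 h of light.

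Only the visual cortex had replicates, 4 mice per group. Every other group had 1 library per assay, so those comparisons carry no test. The 95% Clopper-Pearson intervals printed with them cover counting error only, and a gene is called past a fold where the ratio alone exceeded it. The BDNF, glu/gly and GFP cultures share the DIV14 unstimulated libraries as their control, both KCl cultures share the DIV10 unstimulated libraries, and miR-1 and miR-155 share the GFP libraries. RNA-seq libraries held 448022 to 7689624 reads on genes, RPF libraries 2812215 to 23212489, the tail libraries of cultures and tissues 86841 to 1057812 tags and those of visual cortex 1233538 to 4812273. All 7 neuronal markers examined were detected in every tissue and culture.

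The RPF tables of the hippocampi stand apart from the others. Among genes with 21 to 40 RNA-seq reads, 30.5% were listed at 0 RPFs in embryonic hippocampus, although such genes had a median of 36 RPFs there. The share was 17.9% in adult hippocampus and at most 0.181% in the other 8 samples. Low RPF values of the hippocampi are therefore less certain than their counting intervals say. A gene listed at 0 there is given no fold.

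Between embryonic and adult hippocampus nearly the whole release machinery was higher in the adult. In RNA-seq 33 of 39 members were more than 2-fold higher and 1 was more than 2-fold lower, against 22.3% and 26.8% of all 12585 genes compared. The median log2 ratio was 2.42 for the members and −0.24 for all genes. In RPFs 34 members were past 2-fold higher and 1 lower, against 30.3% and 33.5% of genes, and 32 of 37 were higher without the 2 members listed at 0 RPFs in the embryo. Tags gave 18 of the 23 members compared as higher and 0 lower, against 33.3% and 12.1% of genes. Of these 23, only Syt4 (28), Syt11 (23) and Cltc (49) had at least 20 tags in the shallow embryonic library. The others entered the comparison through their adult tags alone, so the tag count is not separate support for higher adult levels. RNA-seq libraries of both hippocampi were made from poly(A)-selected RNA.

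The synapsins, which tether vesicles to each other and to actin, differed among themselves. Syn1 had 926 RNA-seq reads in the embryo and 5542 in the adult, which is 6.32-fold more in RPM (log2 2.66, interval 2.56 to 2.76). Syn2 went from 742 to 4047 reads (log2 2.53), whereas Syn3 had 116 and 148 and stayed below 2-fold (log2 0.43). The RPF ratios were 2.46, 2.30 and 1.22 on the log2 scale in the same order.

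All 7 vesicle membrane genes were higher in the adult in both assays. Synaptophysin (Syp) had 94.9 RPM in embryonic and 971 RPM in adult hippocampus, a 10.2-fold difference in RNA-seq, and 12.7-fold more RPFs. Its relative synaptoporin (Synpr) differed by 3.49-fold in RNA-seq. Among the SV2 glycoproteins, which bind synaptotagmin and are targets of antiepileptic drugs and botulinum toxin, Sv2b differed most (161 and 2565 reads, 16.8-fold). Sv2a differed by 4.11-fold, and Sv2c, with 19 and 190 reads, by 10.3-fold in RNA-seq and 2.07-fold in RPFs. The synaptogyrins Syngr1 and Syngr3 differed by 8.60-fold and 3.81-fold in RNA-seq.

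The transporters that load transmitter split in direction. Slc17a7 (VGLUT1), which fills glutamate vesicles of cortical and hippocampal pyramidal cells, had 431 and 12550 RNA-seq reads and was 30.7-fold higher in the adult (interval 4.80 to 5.08 on the log2 scale). Slc17a6 (VGLUT2), the other main glutamate transporter, had the same 431 reads in the embryo but 121 in the adult (log2 −1.75, interval −2.06 to −1.46). In RPFs Slc17a6 was also lower, with 1887 and 424 fragments (log2 −2.05), and it was the member past 2-fold lower in both assays. Slc32a1 (VGAT), the transporter of GABA and glycine, was higher by 3.01 on the log2 scale in RNA-seq and by 1.52 in RPFs.

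Of the 6 synaptotagmins with data, Syt1, the calcium sensor of fast release, differed by 9.39-fold in RNA-seq (705 and 6270 reads) and 10.6-fold in RPFs. Syt2, a fast sensor used by some interneurons and in the hindbrain, had 24 and 147 RNA-seq reads and was listed at 0 and 714 RPFs. Syt3 and Syt7, high-affinity sensors, were higher by 2.22 and 2.11 in RNA-seq on the log2 scale. Syt4 and Syt11, which lack calcium binding in their first C2 domain, behaved otherwise: Syt4 had 1457 and 810 reads (log2 −0.77) and Syt11 3045 and 4345 (log2 0.59), neither past 2-fold.

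The SNAREs and complexins were all past 2-fold. Snap25, the plasma membrane SNARE, had 70.2 RPM in the embryo and 1689 RPM in the adult, 24.0-fold more (log2 4.59, interval 4.46 to 4.71), and 13.3-fold more RPFs. The vesicular SNAREs differed 5.34-fold for Vamp2 (498 and 2519 reads) and 29.2-fold for Vamp1, which rested on 7 and 207 reads (interval 3.90 to 6.30 on the log2 scale) and was listed at 0 and 1229 RPFs. The log2 ratio was 1.46 for Stx1a, the smallest of the class. Cplx1 and Cplx2, the complexins that clamp and promote fusion, differed 9.06-fold and 5.34-fold. Nsf, the ATPase that disassembles SNARE complexes, went from 778 to 13328 reads (18.1-fold), its neuronal adaptor Napb differed 8.48-fold and the ubiquitous Napa 2.92-fold.

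Active zone and endocytic genes held both the smallest and the largest differences. Bsn and Pclo, giant scaffolds of the active zone, were 4.47-fold and 4.40-fold higher, and Unc13a, the priming factor, was 2.03-fold higher. Rims1, which recruits calcium channels, was higher by 2.62 on the log2 scale in RNA-seq but by 0.77 in RPFs. Erc2 was below 2-fold in RNA-seq (log2 0.91). Dnm1, the dynamin of synaptic vesicle endocytosis, had 624 and 20093 RNA-seq reads and 1764 and 59540 RPFs, which made it 34.0-fold and 36.2-fold higher, the largest RNA-seq difference of the set. Synj1 (synaptojanin) followed at 6.87-fold, Amph and Snap91 (AP180) stood near 3-fold, and Cltc, the clathrin heavy chain that every cell uses, was at 1.30-fold. The synuclein Sncb went from 126 to 2663 reads, 22.2-fold.

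**Figure D1:**
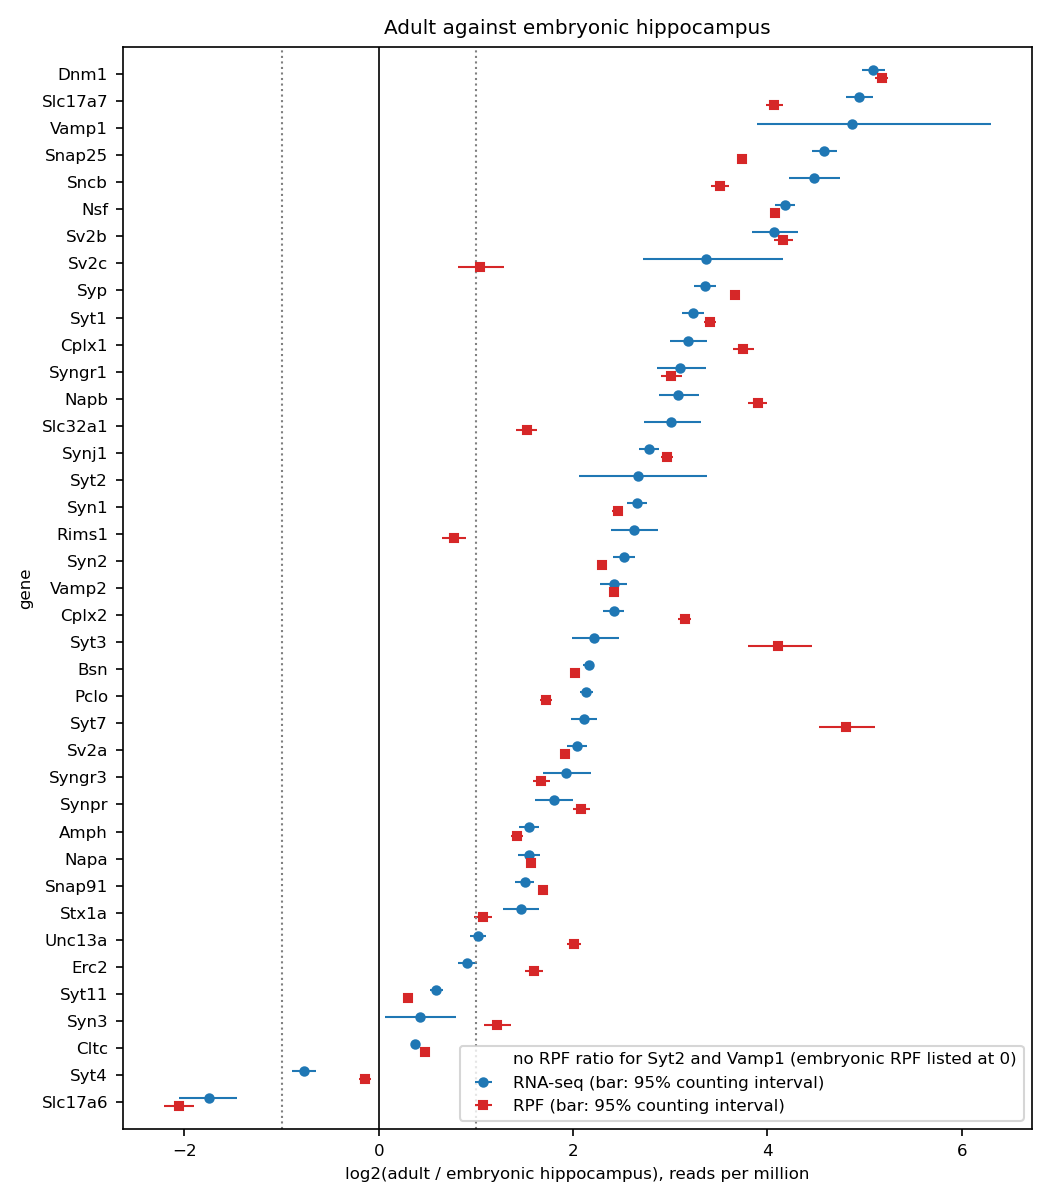
Log2 ratio of adult over embryonic hippocampus for each gene, in RNA-seq and in RPFs, with 95% Clopper-Pearson intervals that cover counting error only. Genes are ordered by the RNA-seq ratio, and dotted lines mark 2-fold. Of these, 33 of 39 lie above 1 in RNA-seq and Slc17a6 lies below −1. The RPF points of Vamp1 and Syt2, listed at 0 in the embryo, are not drawn.

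Levels of cell-type markers differed between the ages as well. Summed over the marker lists in RNA-seq, markers of dividing progenitors (5 of 5 detected in both) stood at 2198 RPM in the embryo and 61.7 RPM in the adult. Oligodendrocyte markers went from 14.4 RPM (Mog at 0) to 1232, astrocyte markers from 357 to 1208, excitatory neuron markers from 678 to 3543 and inhibitory neuron markers from 52.9 to 780 RPM. The general neuronal list stood at 3006 and 2521 RPM. In bulk tissue fewer cells of a type and less RNA per cell cannot be told apart, and the part of these shifts in the differences above was not tested.

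Among genes of vesicle cycling that were not members 88 had a transcript, and 85 of them were compared. In RNA-seq 49 were past 2-fold higher in adult hippocampus and 4 lower, against 22.3% and 26.8% of all genes. In RPFs 44 were higher and 10 lower, against 30.3% and 33.5% of all genes. These RPF counts include genes listed at 0 RPFs in the embryo, among them Rimbp2, Syt17, Rab27b, Doc2a and Cplx3. The vesicular proton pump that energizes transmitter uptake had 11 of 14 subunit genes higher and 0 lower in RNA-seq (median log2 1.46). The largest differences with reads on both sides were those of Slc30a3, the vesicular zinc transporter, with 1 and 389 reads, and of Syt13, with 15 and 1510.

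TE was compared between the hippocampi too. Of 30 members measured at both ages, 9 were more than 1.5-fold higher in the adult and 2 lower, against 30.8% and 15.8% of 5431 genes. Syt7 and Syt3 led, with log2 differences of 2.98 and 2.17, but their embryonic TE (−3.33 and −1.92) rested on 105 and 81 RPFs in the table with excess zeros. Unc13a (1.26), Napb (1.09), Cplx2 (1.01), Erc2 (0.96), Syt4 (0.90), Cplx1 (0.84) and Syp (0.59) came next. The lower ones were Rims1 (−1.58) and Slc17a7 (−0.59). Tail lengths could not be compared between the ages, since no member reached 50 tags in the shallow embryonic tail library.

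Adult cortex and the DIV14 unstimulated culture were compared first by RPFs, where 8 of 39 members were past 2-fold higher in cortex and 2 lower, against 12.2% and 11.2% of 11973 genes. The members higher in cortex were Slc17a7 (529 RPFs in culture and 7975 in cortex, log2 3.12, interval 3.00 to 3.25), Syt2 (2.73), Vamp1 (2.57), Snap25 (2.12), Sv2b (2.02), Dnm1 (1.30), Stx1a (1.10) and Syt1 (1.00). Sv2c (−1.28) and Slc32a1 (−1.07) were lower. Slc17a7 and Slc32a1 thus differed in opposite directions, and inhibitory neuron markers stood at 776 RPM in culture and 638 RPM in cortex while excitatory markers stood at 258 and 1173. Astrocyte markers were at 1513 RPM in culture and 835 RPM in cortex, progenitor markers at 509 and 53.2, and microglia markers at 11.8 (Tmem119 and P2ry12 at 0) and 256. The part of these in the differences was not tested.

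By RNA-seq the same comparison gave 17 members higher and 1 lower, against 17.9% and 17.3% of 9117 genes. The leading members were partly other ones. Pclo (32 reads in culture and 2122 in cortex, log2 4.28), Slc17a7 (3.81), Bsn (3.64), Syn1 (3.54) and Sncb (3.31) led, followed by Synj1 (2.48), Dnm1 (2.20), Syt2 (2.18), Vamp1 (1.98) and Snap25 (1.94), and Slc32a1 was lower (−1.29). The reads of Sncb, Syt2 and Vamp1 in culture were 7, 4 and 3. In RPFs Pclo, Bsn, Syn1 and Sncb stood at 0.61, 0.78, 0.46 and 0.92. The RNA-seq ratio of this comparison followed the length of the reading frame across genes (Spearman rho 0.40 over 9117 genes, which share the 2 libraries), and the RPF ratio did so less (−0.09). In tags 15 of 34 members were past 2-fold higher in cortex and 0 lower, against 10.3% and 10.3% of genes, and Slc17a7 led again (87 and 791 tags, log2 3.97), before Vamp1 (2.81), Sv2b (2.23), Dnm1 (1.92) and Snap25 (1.85). Syn1 and Bsn stood there at 1.18 and 1.03 and Pclo at 0.41.

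Levels between genes were compared as RPFs per length of reading frame. In DIV14 unstimulated cultures Vamp2 had the highest RPF level, at 2607 RPKM (RPM per kilobase of reading frame), followed by Syp (1843), Snap25 (1763) and Sncb (1173). In adult cortex the order of the leading genes was Snap25 (7671), Vamp2 (3239), Syp (2539) and Sncb (2219), and in adult hippocampus Snap25 (4797) and Vamp2 (2966) led as well. In embryonic hippocampus Vamp2 (552), Syt11 (498), Cltc (417) and Snap25 (360) led. Syt2 ranged from 0 to 42.0 RPKM over the 10 samples and was the lowest member in every culture. In adult hippocampus Sv2c (9.48) and Slc17a6 (11.5) were lowest, and in adult cortex Syn3 (20.8) and Sv2c (23.5). Neighbours in these orders were not tested against each other, since no sample has a replicate.

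**Figure D2:**
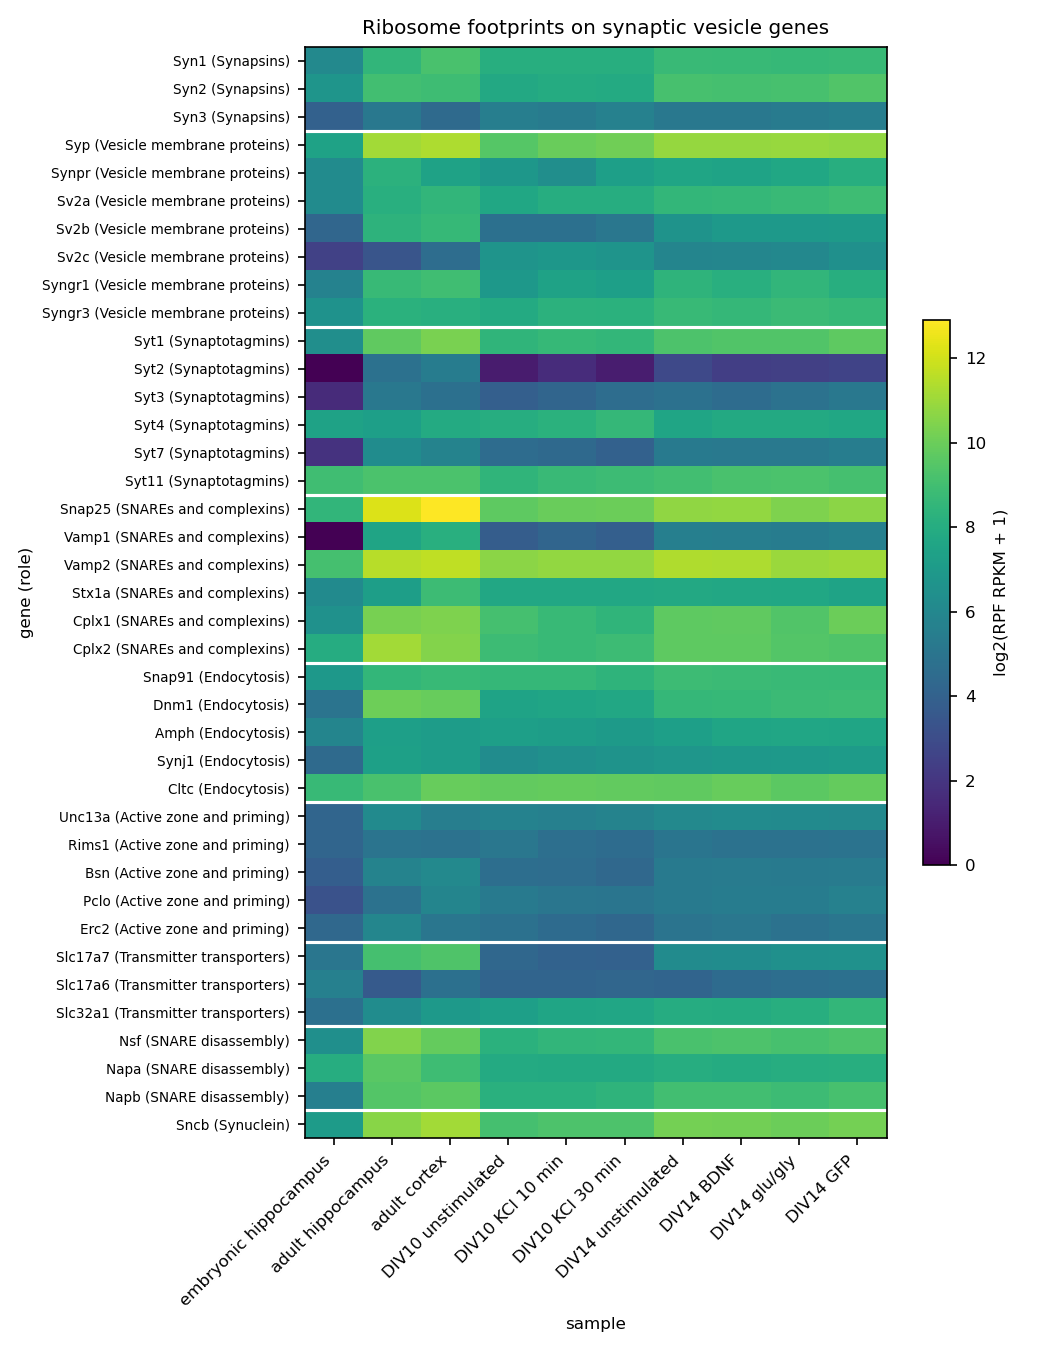
RPF level of each gene in 10 samples, as log2(RPKM + 1), with genes grouped by role. Yellow marks high and dark blue low levels: embryonic hippocampus is the darkest column for most genes, and Snap25, Vamp2, Syp and Sncb are among the brightest lines in the adult tissues.

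The RPFs of the set were mostly higher in the DIV14 than in the DIV10 unstimulated culture. These are separate cultures with 1 library per assay each, so culture age and preparation cannot be told apart. At DIV14, 10 of 39 members were past 2-fold higher and 0 lower, against 4.02% and 9.43% of 12237 genes, and 35 of 39 lay above the median gene. These were Syt2 (11 and 33 RPFs, log2 2.67), Slc17a7 (291 and 529, 1.99), Sv2b (1.90), Vamp1 (1.80), Syngr1 (1.51), Syn2 (1.36), Syp (1.33), Dnm1 (1.12), Sncb (1.08) and Snap25 (1.06). The members below the median gene (log2 −0.095) were Sv2c (−0.82), Syt4 (−0.49), Syn3 (−0.36) and Rims1 (−0.11), none past 2-fold, and Pclo, Cltc and Slc17a6 lay between −0.083 and −0.019. Tags gave 8 of 34 higher and 0 lower, against 5.04% and 5.19%. In RNA-seq, progenitor markers stood at 747 RPM at DIV10 and 509 RPM at DIV14, and astrocyte markers at 1687 and 1513. Inhibitory neuron markers stood at 587 and 776 RPM and excitatory ones at 246 and 258. The part of these in the differences was not tested.

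RNA-seq of these cultures was divided, with 6 of 37 members past 2-fold higher and 5 lower, against 2.25% and 7.41% of 8857 genes. Sv2b (1.90), Slc17a7 (1.43), Syn2 (1.27), Dnm1 (1.08), Syngr1 (1.03) and Napb (1.00) were higher. Syn1 (158 reads at DIV10 and 25 at DIV14, −1.41), Sv2c (−1.38), Pclo (191 and 32, −1.33), Sncb (43 and 7, −1.31) and Bsn (229 and 44, −1.14) were lower. In the tail libraries of the same cultures the ratio of Syn1 was 0.044, of Pclo 0.20, of Sncb 0.76 and of Bsn 0.95, so the direction of these 4 turned with the assay. Sv2c had at most 1 tag and was not compared there.

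TE of the members was high in every sample. Of 321 member values over 10 samples, 266 lay above the median gene of their sample. As a share of the members measured this was lowest in embryonic hippocampus, with 22 of 31, and reached 30 of 33 in DIV14 unstimulated and 31 of 32 in BDNF cultures. The median member stood at the 72.4th percentile in adult hippocampus and at the 88.3rd in DIV14 unstimulated culture. With RPFs per length divided by tags in place of RNA-seq, in the 9 samples that allow it, 177 of 236 values lay above the median, and more than 50% did so in each of the 9.

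The leading TE values carry the RNA-seq pattern named above. In DIV14 unstimulated culture the highest were Syn1 (5.80), Vamp2 (5.70), Pclo (4.82) and Bsn (4.01), which rested on 25, 24, 32 and 44 RNA-seq reads. In adult hippocampus, whose RNA-seq was deeper but also poly(A)-selected, the same genes had TE of 1.04, 2.43, −0.38 and −0.42. In adult cortex, whose RNA was depleted of rRNA, they had 2.63, 4.54, 1.07 and 1.09. The part of depth, RPM scaling, RNA preparation and tissue in these values was not tested. Measured by RPFs per tag, Syp or Cplx1 was the highest member in every one of the 9 samples. Erc2, a scaffold that binds RIM and bassoon, was the lowest member by TE in all 7 cultures with RPFs, at −0.84 to 0.46, while Snap91 (3.73), Syp (3.49), Synj1 (3.46), Syt1 (2.92) and Cltc (2.80) were above 2 in DIV14 unstimulated culture.

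**Figure D3:**
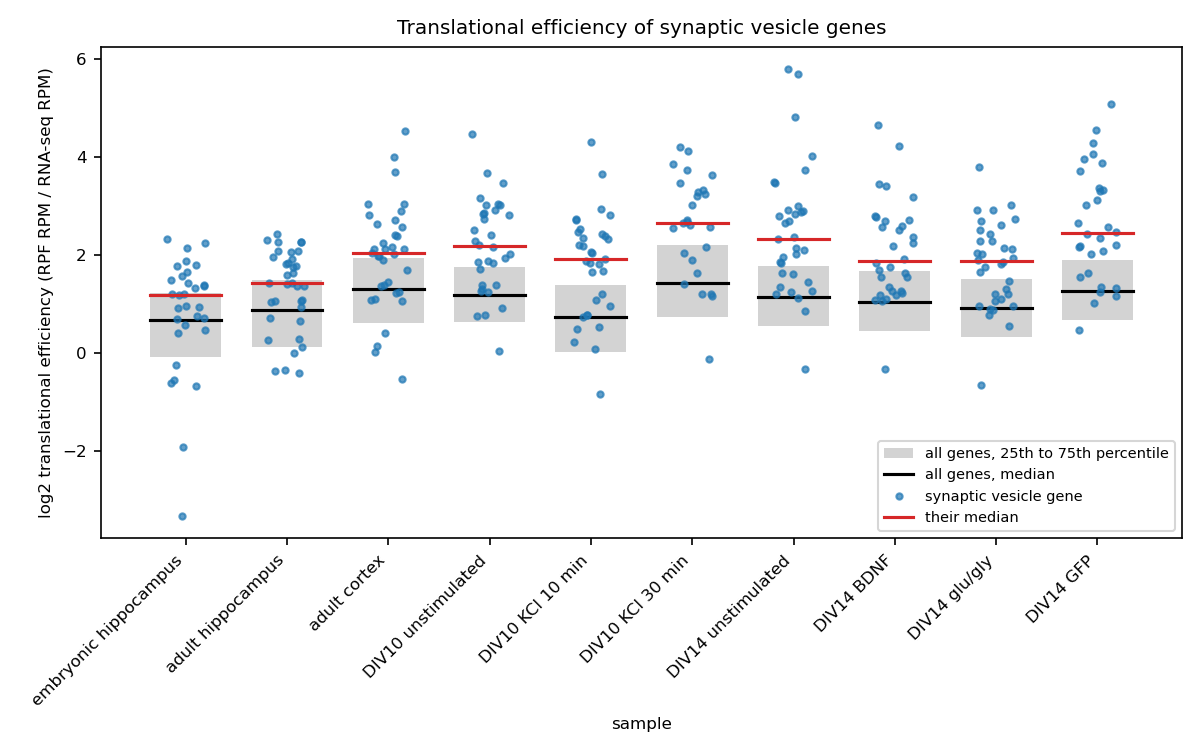
TE (log2 ratio of RPFs to RNA-seq) of each gene in 10 samples, with the median of the set in red, the median of all genes in black and their 25th to 75th percentiles in grey. The red line lies above the black one in all 10 samples.

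Across tissue and age of culture the TE counts were these. In the DIV14 against the DIV10 culture 6 of 31 members were past 1.5-fold higher and 1 lower, against 6.87% and 3.49% of 4500 genes. Syn1 (2.12) and Bsn (1.84) led. No member was past 1.5-fold among genes with at least 30 RPM in both. In adult cortex against DIV14 culture 4 were higher and 14 lower, against 22.8% and 21.8% of 4086 genes. Pclo (−3.75), Syn1 (−3.17) and Bsn (−2.93) were lowest, and Stx1a (1.12) was highest.

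Poly(A) tails of the members were longer than those of most genes. Over the 20 tail libraries 133 of 550 member values lay below the median gene of their library, and the median member stood between the 66.5th and the 83.3rd percentile in the 19 libraries with measured members. Syngr1 was long throughout, at 134 to 143 nt in the 9 cultures and 120 nt in adult cortex, where the median gene had 99.5 nt. Dnm1 (144 nt at DIV10 and 143 nt at DIV14) and Stx1a (121 and 143 nt) were long too. Syt1 (95.1 and 107 nt), Synj1 (102 and 105 nt), Synpr (103 and 106 nt) and Sncb (104 and 114 nt) were short for the set.

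**Figure D4:**
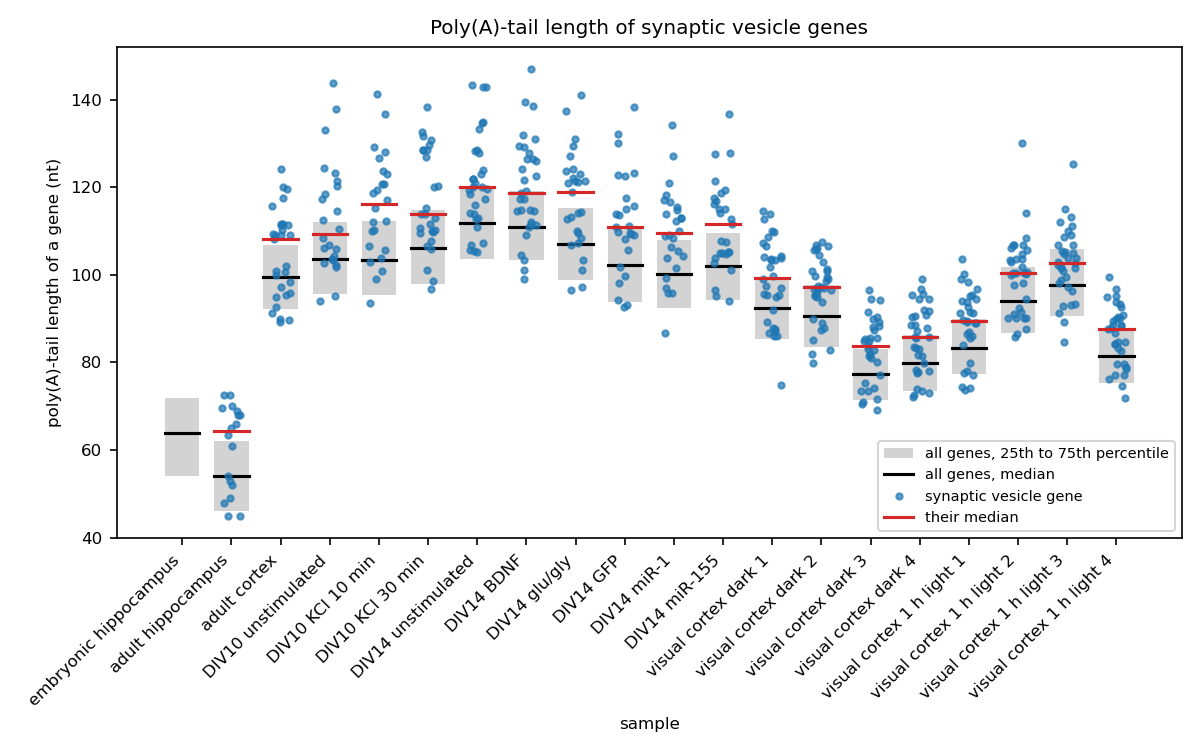
Tail length in nt of each gene in 20 tail libraries, with the median of the set in red, the median of all genes in black and their 25th to 75th percentiles in grey. No gene of the set reached 50 tags in embryonic hippocampus, and in the other 19 libraries the red line lies above the black one.

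Tail differences between samples ran through the whole library. In adult cortex against DIV14 culture 24 of 28 members were more than 10 nt shorter, but so were 62.4% of 2663 genes. With the median difference of all genes set to 0, 8 of 28 were past 10 nt, against 22.1% of genes. In the DIV14 against the DIV10 culture 14 of 24 were more than 10 nt longer and 0 shorter, against 32.6% and 1.45% of genes. After the same centring 2 of 24 were past 10 nt, against 17.1% of genes. Stx1a (21.6 nt), Syt4 (19.1 nt) and Erc2 (16.9 nt) were longer by the most. The GFP culture had 13 of 25 members shorter than the untransduced culture by over 10 nt, against 40.4% of genes, and 3 past 10 nt after centring.

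Tags do not measure every member. Rims1 had 0 tags in all 12 culture and tissue libraries, Sv2c 0 to 1, Syt2 0 to 3, Sv2a 0 to 14 and Napb 0 to 17, although Sv2a had up to 3608 RNA-seq reads. These genes are missing from the tag and tail counts.

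After stimulation of cultures, members past 2-fold in level were found in RNA-seq alone, and most of all genes also stayed within 2-fold. With 1 library per assay, a count of 0 members does not tell the set apart from other genes. After BDNF, a growth factor that acts through TrkB, 0 members were past 2-fold in RNA-seq (34 compared), RPFs (39) or tags (34), against 2.84%, 3.21% and 2.16% of genes in either direction. The largest RPF differences were those of Syt2 (33 and 19 RPFs, log2 −0.55) and Slc17a6 (0.41). Snap25 stood at 248 and 303 RNA-seq reads (0.37) and at 0.01 in RPFs. In TE, 2 of 31 were past 1.5-fold against 8.93% of genes. In tails, 5 of 31 were past 10 nt against 15.3%, with Bsn (18.6 nt) and Napa (11.1 nt) longer and Pclo (−20.3 nt), Dnm1 (−14.3 nt) and Stx1a (−11.2 nt) shorter.

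After glu/gly, which activates glutamate receptors, 5 of 36 members were past 2-fold higher in RNA-seq and 0 lower, against 2.89% and 1.83% of 6511 genes. They were Pclo (32 and 157 reads, log2 2.04), Bsn (44 and 179, 1.77, interval 1.30 to 2.29), Syn1 (25 and 92, 1.62), Sncb (7 and 24, 1.47) and Synj1 (76 and 188, 1.06). No member was past 2-fold in RPFs or tags, against 2.86% and 1.94% of genes, and in tags Syn1 stood at −0.0051, Bsn at −0.038 and Synj1 at −0.12. These RNA-seq ratios rest on the same low counts of the DIV14 unstimulated library as the TE values above. Across genes the RNA-seq and RPF ratios both rose with reading-frame length (Spearman rho 0.33 and 0.33, over 6511 and 10784 genes of the same libraries), and that of tags did not to this degree (0.05). In TE, 11 of 32 members were past 1.5-fold lower against 23.1% of genes, with Pclo (−2.21), Bsn (−2.07) and Syn1 (−2.00) lowest. In tails, 4 of 27 were shorter by over 10 nt against 20.2%, led by Stx1a (−21.5 nt).

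KCl, which depolarizes the membrane and opens calcium channels, gave 0 members past 2-fold after 10 min in RNA-seq (37 compared), RPFs (38) and tags (32), against 2.61%, 6.83% and 2.74% of genes in either direction. After 30 min Slc32a1 was lower in RNA-seq (149 and 42 reads, log2 −1.25, interval −1.79 to −0.76), 1 of 37 members against 7.22% of genes lower. Its RPFs, at 157 and 195 RPKM, and its tags, at 494 and 510 RPM, were not. In RPFs and tags 0 members were past 2-fold at 30 min, against 6.76% and 3.74%. Syt4, a synaptotagmin whose transcript is known to respond to depolarization, had log2 ratios of 0.71 in RNA-seq, 0.54 in RPFs and 0.59 in tags, short of 2-fold. TE was past 1.5-fold lower for 7 of 32 members at 10 min against 36% of genes. At 30 min it was higher for 10 and lower for 1 of 26, against 30.9% and 6.34%. The median TE of all genes was 1.17 without KCl, 0.74 at 10 min and 1.44 at 30 min. These counts thus include a shift of the whole sample, and centred counts are given at the end. Tails were past 10 nt longer for 3 of 24 members at 10 min (Syt7, Syp and Cplx1) against 7.79% of genes, and longer for 4 and shorter for 1 at 30 min against 11.8% and 4.23%.

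In visual cortex, the experiment with replicates, no member was called in either measure. Tag counts of 9554 genes were tested with edgeR's quasi-likelihood test, which called 128 genes after Benjamini-Hochberg adjustment (1.34%), 116 of them higher with light (1.21%). Of the 36 members tested 0 were called, and 3 had an unadjusted p under 0.05 (9.45% of all genes did). DESeq2 called 1 member, Syt4.

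Syt4 had 467, 532, 547 and 591 tag RPM in the 4 dark mice and 577, 686, 685 and 651 after light. The highest dark mouse lay above the lowest light mouse. The log2 difference was 0.31 with an SE of 0.091, and the adjusted p was 0.12 by edgeR's quasi-likelihood test and 0.047 by DESeq2. Dnm1 had 621 to 748 tag RPM in the dark (lowest and highest of 4) and 725 to 826 after light, with a log2 difference of 0.24 (SE 0.085, edgeR adjusted p = 0.28). Syt7 had 276 to 293 in the dark and 297 to 362 after light, and its groups did not overlap (log2 0.21, SE 0.093, edgeR adjusted p = 0.47). Groups did not overlap for Nsf either, at 1402 to 1495 and 1496 to 1693, and for 5.76% of all genes tested. Napb had the largest difference of the set with all 8 mice, 0.47 with an SE of 0.35, on 4.83 to 15.5 tag RPM, but 0.26 to 0.73 with 1 mouse left out.

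None of the most abundant members passed the test. Snap25 had 4091, 4490, 4508 and 4575 tag RPM in the dark (4416 ± 220, SD, n = 4) and 4096, 4511, 5174 and 4661 after light (4610 ± 445, n = 4), a log2 difference of 0.09 (SE 0.076). Syt1 stood at 1856 ± 191 and 1906 ± 85.8, and Nsf at 1466 ± 43.1 and 1561 ± 92.1 (SD, n = 4 each). Oligodendrocyte markers summed to 636 to 1060 tag RPM in dark mice and 418 to 787 in light mice, and astrocyte markers to 697 to 896 and 550 to 765. The part of these in the values above was not tested. None of the other vesicle-cycling genes was called, of 77 tested in tags and 58 in tails.

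Tail lengths in visual cortex were tested with limma on 4321 genes, which called 10 (0.231%), all longer with light. The fit pooled the variances of all genes fully, so every member tested had the same SE, 6.68 nt. That SE is not the spread of the gene itself, and it includes the shifts of whole libraries given below. A call thus depended on the size of the difference alone. A small but steady change in a member could not be called, so the absence of calls does not show unchanged tails. Of 31 members 0 were called, and 1 had an unadjusted p under 0.05 (3.93% of all genes did). That was Syt4, at 86.8, 85.1, 70.4 and 73.0 nt in the dark and 87.0, 100, 105 and 79.6 nt after light, a difference of 14.2 nt (SE 6.68 nt, adjusted p = 1.00 by limma). Its groups overlapped. Napa differed by −10.5 nt and Syt3 by 6.85 nt, and the longest members, Slc32a1 (102 ± 9.99 and 106 ± 10.2 nt, SD, n = 4 each), Syngr1 and Dnm1, by 4.20, 1.60 and 1.07 nt (SE 6.68 nt each). With 1 mouse left out these 3 differences ran from 0.24 to 8.58, −1.55 to 5.09 and −1.23 to 3.57 nt, so that of Syngr1 and of Dnm1 changed sign. Dark mice 3 and 4 and light mice 1 and 4 had short tails over all genes (library medians 77.5 to 83.3 nt, against 90.6 to 97.8 nt in the other 4). The median difference was 3.75 nt over all genes and 2.72 nt over the members. It depended on single mice, from 1.05 nt (without light replicate 3) to 6.28 nt (without dark replicate 1) over all genes, and from −0.13 nt (without dark replicate 3) to 5.56 nt (without light replicate 4) over the members. With each library centred on its median gene the median over the members was −1.30 nt.

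A virus with miR-1, a muscle miRNA that neurons hardly express, was compared with the GFP virus, to ask what a foreign miRNA does to neuronal mRNAs. miRNAs pair through their seed with sites in 3′ UTRs and lower the mRNA level. The sites searched, on the transcript strand of the RefSeq 3′ UTR of each gene (GRCm38.p6), were 3 in number. They were ACATTCC, which pairs with all bases of the miR-1 seed, then CATTCCA, which pairs with all but the last and ends in A, and the long form ACATTCCA, which holds both of the others. Of the members 15 of 39 had at least 1 site, against 2705 of 16859 UTRs (16.04%), and 6 had the long form, against 3.56%. A match is a description of the letters only. Longer UTRs hold a match more often by chance, and those of the members ran from 497 nt (Syt3) to 6786 nt (Syn3). Length was not taken into account in these shares or in those of miR-155 below, so they show no enrichment.

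In tags 4 of 30 members were past 2-fold lower with miR-1 and 0 higher, against 2.94% and 2.04% of 4862 genes. Each of the 4 had at least 2 sites, but so did Cltc, which was not lower, and Syt2, which had too few tags to compare. The share of all UTRs with at least 2 sites was not counted. Sites of the 4 are shown because they are the members that moved, with the matched letters in capitals, each on the strand of its transcript. Syt1 (chromosome 10, minus strand) has 3 sites:
Syt1 chr10:108500078-108500106: agtatcgtctgCATTCCAgcaaaaatatc
Syt1 chr10:108499098-108499126: aagccactagtCATTCCAtatgagtctta
Syt1 chr10:108498126-108498154: tgcccaagcagACATTCCttcctgcatca
Vamp2 (chromosome 11, plus strand) has 2 sites:
Vamp2 chr11:69091589-69091617: ggtctctccctACATTCCtgctccccagt
Vamp2 chr11:69091629-69091657: gcactcaactgACATTCCcagggggtctc
Cplx2 (chromosome 13, plus strand) has 2, of which the second is the long form:
Cplx2 chr13:54380295-54380323: ctcccccccatACATTCCttcatgctccc
Cplx2 chr13:54380357-54380386: aaagtaatgacACATTCCAgccttgcccag
Bsn (chromosome 9, minus strand) has 2, of which the first is the long form:
Bsn chr9:108099465-108099494: ccgattccttcACATTCCAgctggcccgga
Bsn chr9:108099094-108099122: acagccttaatCATTCCAgtttgatttac

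Syt1 had 834 tag RPM in the GFP, 316 in the miR-1 and 867 in the miR-155 culture (325 and 141 tags without and with the miRNA, log2 −1.40, interval −1.70 to −1.11). Its RNA-seq level was 346, 163 and 340 RPM in the same order (log2 −1.08 for miR-1), and it was the 1 of 35 members past 2-fold lower in RNA-seq, against 1.98% of genes. Vamp2 had 1178, 549 and 1179 tag RPM (log2 −1.10 for miR-1). Its RNA-seq reads, 9 in GFP and 5 in miR-1, were too few to compare. Cplx2 had 477, 224 and 594 tag RPM (log2 −1.09) and a miR-1 ratio of −0.60 in RNA-seq. Bsn had 121, 58.2 and 135 tag RPM, on 47 and 26 tags for GFP and miR-1 (log2 −1.04, interval −1.80 to −0.33). Its miR-1 ratio in RNA-seq was −0.34, on 32 and 55 reads for GFP and miR-1 (interval −0.99 to 0.35). In the miR-155 culture, which shares the GFP control, none of the 4 was lower than with GFP in tags.

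Sites were not followed by a lower level in every case. Snap25, on the plus strand of chromosome 2, holds the long form once and had a tag ratio of −0.13 (interval −0.28 to 0.03):
Snap25 chr2:136781545-136781574: gtaaaactgtgACATTCCAcagagctactg
Cltc, on the minus strand of chromosome 11, has 3 sites and a ratio of −0.09 (interval −0.34 to 0.15):
Cltc chr11:86695377-86695405: actttattttcACATTCCgcatcattaga
Cltc chr11:86694849-86694877: ttctgtgggacCATTCCAttcaggaacaa
Cltc chr11:86694500-86694528: ttatgtcaattACATTCCtgtagttatga
Over the members with a site the median tag ratio was −0.22 (10 compared) and over those without 0.17 (20 compared), beside −0.07 and 0.05 over all genes. These medians were not adjusted for 3′ UTR length, as the study's own fold changes were. Members without a site also ranged widely, from Cplx1 at −0.75, which had 102 tag RPM in untransduced, 367 in GFP, 217 in miR-1 and 221 in miR-155 cultures, to Slc17a7 at 0.86. Tails with miR-1 were past 10 nt shorter for 2 of 25 members, Cplx2 (−17.3 nt) and Synpr (−13.0 nt), against 14.9% of genes.

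**Figure D5:**
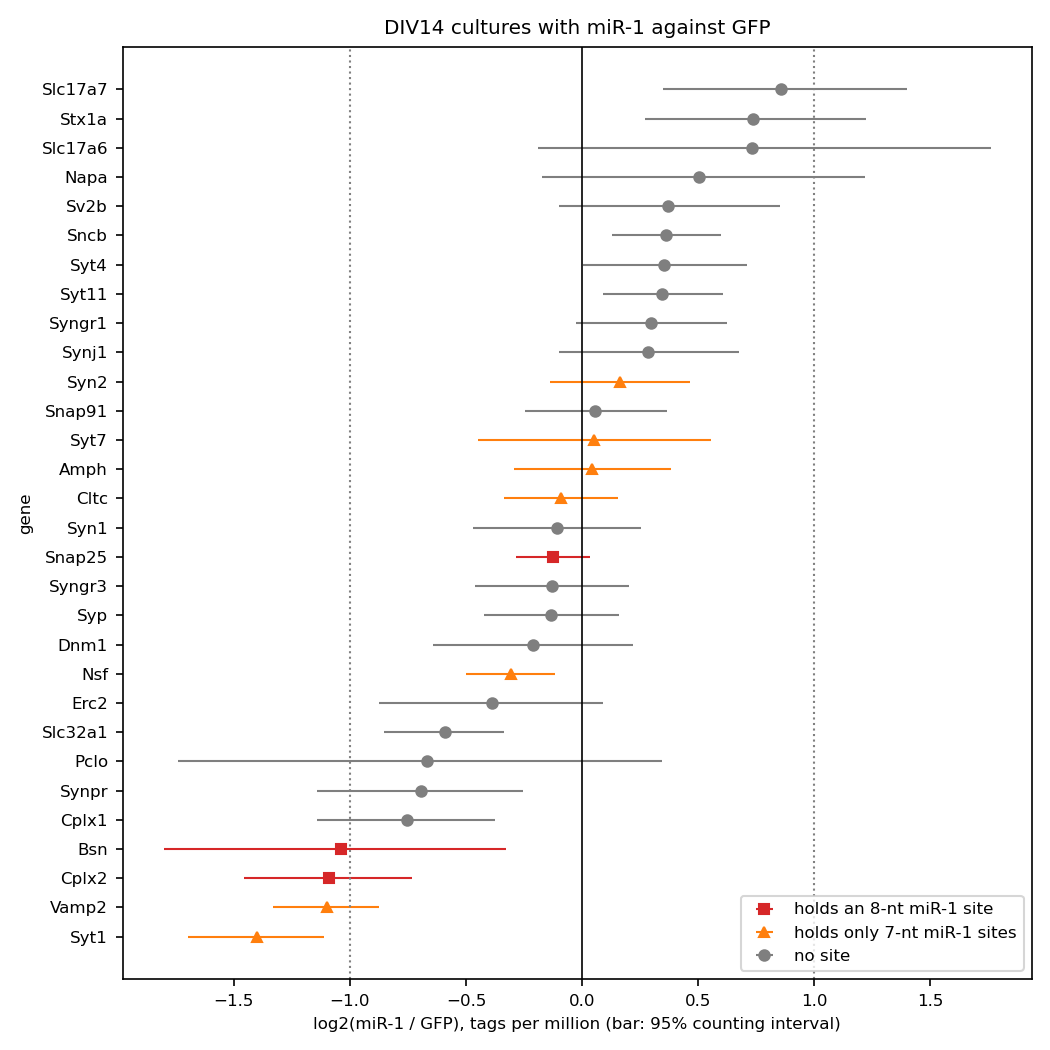
Log2 ratio of tags with miR-1 over GFP for each gene compared, with red squares for a 3′ UTR that holds the long site, orange triangles for short sites alone and grey circles for no site, and with 95% Clopper-Pearson intervals that cover counting error only. Syt1, Vamp2, Cplx2 and Bsn lie below −1, all among the genes with a site.

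miR-155, an immune-cell miRNA, had few sites in the set. Its mature sequence in RefSeq (chr16:84714143-84714165, plus strand, GRCm38.p6), with the seed in capitals, is given to show what was searched for:
mmu-miR-155-5p: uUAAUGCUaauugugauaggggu
The letters searched were AGCATTA, which pairs with the whole seed, then GCATTAA, which pairs with all but its last base and ends in A, and the longer AGCATTAA, which holds both of the others. Only Cltc held a match in its 3′ UTR, against 11.9% of UTRs, with a tag ratio of −0.06. With miR-155, 0 of 33 members were past 2-fold in tags and 0 of 36 in RNA-seq, against 4.04% and 4.97% of genes in either direction. Cplx1 had a tail longer by 10.4 nt and Cplx2 one shorter by 10.8 nt, 2 of 25 members past 10 nt against 15.2% of genes. The DIV14 GFP culture was also compared with the untransduced culture. The study's methods place 6 culture samples in 2 batches of 3 without naming them, so the virus and a batch cannot be told apart here. In that comparison 0 of 39 members were past 2-fold in RPFs (4.92% of genes), 1 of 35 in RNA-seq (Vamp2, 24 and 9 reads, with 2.7% of genes lower) and 1 of 34 in tags (Cplx1, log2 1.85, with 1.5% of genes higher). In TE 4 of 30 members were past 1.5-fold higher, Slc32a1 (1.40), Dnm1 (1.22), Erc2 (0.79) and Napa (0.74), against 11.1% of genes.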

How the data were processed

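The authors mapped RNA-seq reads and RPFs to mm10 (STAR 2.4.2 and bedtools are named in the submitters' processing notes) and counted them on reading frames, leaving out the first 50 nt, with 1 transcript for each gene. The deposited tables hold counts, RPM and RPKM, and a deposited table holds log2 TE. Tail libraries (TAIL-seq for the 9 cultures and adult cortex, PAL-seq v2 for the hippocampi and visual cortex) were deposited as tag counts and tail length per gene, a mean except in the hippocampi, whose values in steps of 0.5 nt were taken as medians. For RNA-seq, RNA was depleted of rRNA for adult cortex and 6 cultures, which the methods do not name at that step. It was poly(A)-selected for the hippocampi. Of 44 samples 42 were used, and 2 RPF libraries of the miRNA experiment, whose labels contradict themselves, were left unassigned.

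Log2 ratios were computed from deposited counts as RPM with 0.5 reads added, for genes with at least 20 reads in 1 library. TE was computed from deposited RPM at no less than 10 RPM in RNA-seq and 1 RPF, and tail differences at no less than 50 tags. "Past" means 2-fold for levels, 1.5-fold for TE and 10 nt for tails. Light was tested by the quasi-likelihood test of edgeR 4.0.16 for tag counts (TMM factors, genes kept by filterByExpr) and by limma 3.58.1 for tail lengths, two-sided, adjusted over all genes by Benjamini-Hochberg at 0.05. DESeq2 1.42.0 was an alternative, and both tests were tried on simulated data. The labels do not say that visual cortex samples of equal number belong together. Reading frames were counted without a stated use of strand. In each comparison up to 10 genes past the fold per direction were named, and paralogs throughout. For light, those called, the 3 largest changes and the 3 highest levels were named. The members, gene lists and tests were chosen with earlier results of these data known. A result on 1 marker gene is not reported here.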

Additional observations from a re-analysis of the deposited data

Results flagged for a closer look

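Of 134 groups of 4 visual cortex values (tags or tails of a gene in dark or light mice), 5 held a mouse far from the other 3 by Dixon's criterion, and chance gives about 1 in 20. Dark mouse 2 was high for Cplx1, at 404.6 tag RPM where the others had 352.7 to 359.7, and for Slc17a7, at 1519 where the others had 1354 to 1370. Dark mouse 1 was low for Amph, at 264 tag RPM against 304.4 to 309.1, and for Nsf, at 1402 against 1482 to 1495. The same mouse was high for Slc17a6, the vesicular glutamate transporter VGLUT2, at 101.2 tag RPM against 52.3 to 57.98. All 5 values lie in dark mice 1 and 2, and what sets them apart was not tested.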

How the results depend on the processing

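Of the counts reported, 107 recomputations stayed within 1.5 times the reported count and 35 did not. In visual cortex, members called in tags were 0 in the reported fit and in all 8 fits without 1 mouse, and DESeq2 gave 1 (Syt4, log2 0.32). Members called in tails were 0 in every alternative. Over all genes the calls were 100 to 150 in tags and 1 to 21 in tails without 1 mouse. Without dark replicate 2, 3 or 4 the tail calls were 2, 1 and 1, without light replicate 2 or 3 they were 1 and 2, and without dark replicate 1 or light replicate 4 they were 19 and 21. Tail calls were 1 on the log2 scale and 3 with each library centred. Blocking on replicate number gave 113 genes in tags and 1 in tails and 0 members in either. With each gene's group mean subtracted, samples of equal number correlated at −0.20 to 0.03 in tags and −0.11 to 0.04 in tails. The numbers were therefore not taken as pairs.

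In place of RNA-seq, tags gave 18 members past 2-fold for adult against embryonic hippocampus, 0 for glu/gly and 0 for KCl 30 min. They reversed Syn1 (0.044), Bsn (0.95), Pclo (0.20) and Sncb (0.76) for DIV14 against DIV10, Syn1 (−0.0051), Bsn (−0.038) and Synj1 (−0.12) for glu/gly, and Slc32a1 (0.043) for KCl 30 min. RNA-seq in place of tags gave 1 member for miR-1. At no less than 50 reads the GFP RNA-seq count was 0. At no less than 30 RPM fewer genes were compared. TE counts were 6 of 21 members for the hippocampi, 10 of 20 for cortex against culture and 0 of 17 for DIV14 against DIV10. The shares over all genes were 35.9%, 41.1% and 4.98%. The other TE counts were 1 for BDNF, 6 for glu/gly, 3 for KCl 10 min and 5 for KCl 30 min. With the median TE change set to 0 they were 1 for BDNF, 2 for KCl 10 min and 6 for KCl 30 min. With the median tail difference set to 0 the counts were 8 of 28 for cortex against culture and 2 of 24 for DIV14 against DIV10. The shares over all genes were 22.1% and 17.1%. The other counts were 2 for glu/gly, 3 for KCl 30 min and 3 for GFP. At no less than 100 tags they were 3 for BDNF, 0 for KCl 10 min and 1 for KCl 30 min. RPFs per tag put 177 TE values above the median. That measure, the centred tails of visual cortex and RNA-seq for miR-1 were chosen after seeing the data. The cause was not tested for any of these beyond what a stricter filter or a centring removes by construction. RNA-seq counts on genes ran from 448022 (DIV14 GFP) to 7689624 (embryonic hippocampus), and the embryonic tail library held 86841 tags, which limits the members that could be compared there.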
